A study of Mus musculus with 6 samples.

Results

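Mitochondrial ribosomal protein genes, those whose annotated symbol begins with Mrpl or Mrps followed by a number, were followed in fetal hepatocytes that lack Cnot3. The platform annotation held 78 such symbols. Of these, 76 were named alone by at least 1 probe set and were analysed, among 18193 genes in all, while Mrpl30 and Mrpl53 appeared only on probe sets that also name another gene. All 76 passed the filter on low intensity, which kept 16499 genes. Each gene is represented by its probe set of highest mean over the arrays. By symbol, with Mrps30 and Mrps18a moved to the large subunit, 49 of the 76 were counted to the large and 27 to the small subunit. Whether each product, such as that of Mrps36, sits in the ribosome was not checked.

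Cells came from livers of E16.5 mouse embryos and were used after several days of culture, in a medium that held oncostatin M and dexamethasone. Control cells are labelled wild type. Cnot3KO cells came from embryos with a floxed Cnot3 gene that is deleted by Cre driven from the albumin promoter, so that cells without albumin expression can keep it, and the study describes the loss as incomplete in the fetal liver but visible in the cultured cells. The study drew its controls from floxed animals without Cre and from Cre carriers with an intact Cnot3 allele, and which of these gave the control cells is not given in the sources used here. Transcription was blocked with actinomycin D (ActD) for 0, 6 or 12 h in both genotypes, and the total RNA of each genotype and time was hybridised to 1 of 6 arrays. There were therefore no replicates, a difference at a single time comes without an error, and p-values measure only the scatter around models over the 3 times. The number of arrays limits the precision. Cnot3 itself read 296, 214 and 158 in control against 174, 174 and 146 in Cnot3KO cells at 0, 6 and 12 h (intensity), while its other probe set differed by -0.05 on the log2 scale at 0 h.

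Mitochondria translate a handful of membrane proteins of the respiratory chain from their own genome, on ribosomes of bacterial descent. The RNA of these ribosomes is made in the organelle, but every protein of them is encoded in the nucleus, translated in the cytosol and imported. Some have bacterial counterparts and others are found only in mitochondria. Liver cells are rich in mitochondria. Cnot3 belongs to the Cnot complex, which shortens poly(A) tails and so starts the decay of mRNAs.

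The transcription factors most often linked to nuclear genes of mitochondrial function are the ETS family member Gabpa, Nrf1 and Yy1. Promoters of 300 bases, 250 before and 50 after the transcription start (RefSeq, GRCm38.p6), were at hand for 67 of the 76 genes and were searched on both strands. The ETS letters CCGGAAG occurred in 37.3% of the 67 promoters and in 12.9% of those of 17491 protein-coding genes. The Nrf1 letters GCGCANGCG occurred in 22.4% against 9.63%, and the Yy1 letters AAGATGGCG in 11.9% against 2.14%. The E-box CACGTG, which binds Myc among others, was no more frequent in the members, with 7.46% against 8.91%. The ends of the Yy1 motif can overlap the ETS and the Nrf1 motif, and such matches were counted under both. At least 1 of the 4 was present in 42 of 67 promoters, or 62.7%, against 27.9% of protein-coding genes and 22.6% of all 27025 genes of the table. The median GC share was 58% in the members and 56.3% in protein-coding genes.

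**Figure D1:**
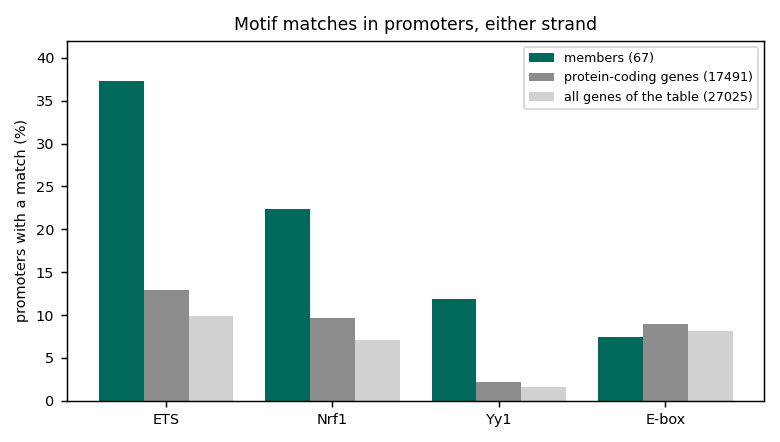
Share of promoters, in percent, that hold each of 4 motifs on either strand, for the members, for protein-coding genes and for all genes with a promoter in the RefSeq table. The bars of the members stand at 37.3% for ETS, 22.4% for Nrf1 and 11.9% for Yy1, above the other bars, and at 7.46% for the E-box.

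One example of each motif is shown from members described here, as the 200 bases that end 1 base before the transcription start, 5′ to 3′, with the matches in capitals. Mrpl45 (chr11:97315516-97315715, plus strand) had 2 Nrf1 matches, which begin 120 and 38 bases before the start. Mrps22 (chr9:98601680-98601879, minus strand) had 1 ETS match, 11 bases before the start. Mrpl36 (chr13:73330809-73331008, plus strand) had an E-box and, in reverse orientation, a Yy1 match, 43 and 31 bases before it.
Mrpl45: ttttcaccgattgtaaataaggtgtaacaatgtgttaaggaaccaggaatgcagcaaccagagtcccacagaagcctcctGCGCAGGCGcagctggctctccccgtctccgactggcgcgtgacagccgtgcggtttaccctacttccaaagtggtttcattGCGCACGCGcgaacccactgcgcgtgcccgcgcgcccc
Mrps22: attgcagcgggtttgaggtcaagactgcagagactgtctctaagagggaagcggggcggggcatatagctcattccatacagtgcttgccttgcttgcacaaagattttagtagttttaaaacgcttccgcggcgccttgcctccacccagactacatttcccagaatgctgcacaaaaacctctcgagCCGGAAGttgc
Mrpl36: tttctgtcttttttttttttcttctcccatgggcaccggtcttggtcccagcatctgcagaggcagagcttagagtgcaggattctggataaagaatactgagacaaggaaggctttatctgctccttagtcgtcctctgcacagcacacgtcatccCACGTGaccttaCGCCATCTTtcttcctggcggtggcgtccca
Mrpl45 had the largest difference of the members before ActD, Mrps22 fell in control cells after ActD, and Mrpl36 was among the 6 members of most positive change there. A match describes the letters of a promoter and not binding. Members with any of the 4 motifs had a median difference of 0.17 between genotypes at 0 h and members without one of 0.19, both on the log2 scale.

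Members often started near the start of a gene on the opposite strand, and whether such pairs share a promoter was not tested. Of 67 genes, 25 (37.3%) had the start of a gene on the opposite strand within 1000 bases upstream, against 13.2% of protein-coding genes. Mrpl46 and Mrps11, of the large and the small subunit, start 42 bases apart. Other members face mitochondrial genes. Mrpl43 lies 116 bases from Twnk, the helicase of mitochondrial DNA, Mrps12 lies 147 bases from Sars2, a mitochondrial seryl-tRNA synthetase, and Mrpl47 lies 308 bases from Ndufb5, a subunit of respiratory complex I. Neighbours differed in their values. At 0 h Mrpl47 was higher in Cnot3KO cells by 0.91 and Ndufb5 differed by -0.22, while Mrpl43 and Twnk were higher by 0.38 and 0.68, all on the log2 scale. Members lay on 17 chromosomes, with 11 of them on chromosome 11.

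Before ActD, mitochondrial ribosomal protein mRNAs read on the whole slightly higher in Cnot3KO than in control cells. The median difference was 0.19 on the log2 scale, against 0.04 over all genes, and 59 of 76 members (77.6%) lay above 0, against 55.0% of all genes. With each array centred on the median of all genes the median of the members was 0.06 and that of all genes -0.09, and 44 of 76 members (57.9%) lay above 0, against 38.3% of all genes. Few members differed much. Beyond 1.5-fold, the threshold of the study, 7 members were higher, or 9.21% of members against 6.87% of the 16110 genes kept at 0 h and 8.75% of the 11859 genes brighter than the array median at 0 h in either genotype. The count was 4 (5.26%, against 4.06%) with arrays centred on the median of all genes and 3 (3.95%, against 4.9%) with the mean of all probe sets of a gene. No member was lower by as much, against 2.99% of all genes. A comparison of 1 array with 1 array allows no test. For 29 members with a second probe set above the array medians, the SD of a single probe set's difference was 0.19 at 0 h. Both probe sets were read on the same arrays, and some share sequence. This SD therefore holds no error of culture, RNA or hybridisation and is not the error of a genotype difference.

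The 7 members over 1.5-fold higher were Mrpl45, Mrpl47, Mrpl19, Mrps30, Mrps35, Mrpl21 and Mrpl35. Mrpl45, which tethers the ribosome to the inner membrane, read 1233 in control against 2380 in Cnot3KO cells, a 1.93-fold difference in intensity. Mrpl47, the counterpart of a bacterial large-subunit protein, had 775 and 1451. Mrps30, which sits in the large subunit despite its name, had 1271 and 2108, and Mrpl19, another protein with a bacterial counterpart, had 915 and 1576. The remaining members had differences of 0.68 for Mrps35, 0.65 for Mrpl21 and 0.63 for Mrpl35, and the next member, Mrpl46 at 0.55, fell just outside the threshold. Of these 7 proteins 6 belong to the large subunit, which holds 49 of the 76 members, and 1, Mrps35, to the small one.

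Probe sets of a gene did not always concur. A second bright probe set of Mrpl19 differed by 0.59 at 0 h. For Mrpl47, Mrpl35 and Mrpl21 the other probe sets were many times dimmer and differed by -0.07 and -0.20, by 0.22 and -0.23, and by 0.05 and -0.16. Mrpl45, Mrps30 and Mrps35 had 1 probe set each. Probe sets of Mrpl1, Mrpl13, Mrpl15, Mrpl38, Mrpl57, Mrps5 and Mrps10 also disagreed in sign by over 0.5 in total.

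At the other end stood Mrps21, the counterpart of bacterial S21, which read 1673 in control against 1250 in Cnot3KO cells, a difference of -0.42. Its other probe set differed by -0.49. Mrpl50, which is found only in mitochondria, followed with -0.29, and Mrpl42, Mrpl33, Mrpl54, Mrpl11, Mrps18c and Mrpl52 had differences from -0.22 to -0.13. By class, the median at 0 h was 0.24 for the large and 0.17 for the small subunit. Among proteins of the large subunit with a bacterial counterpart 25 of 28 (89.3%) lay above 0 with a median of 0.18. Among those found only in mitochondria it was 13 of 20 (65%) with a median of 0.31, against 55.0% of all genes. With arrays centred on the median of all genes the counts were 17 of 28 and 12 of 20, against 38.3% of all genes. The medians were then 0.06 and 0.19.

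**Figure D2:**
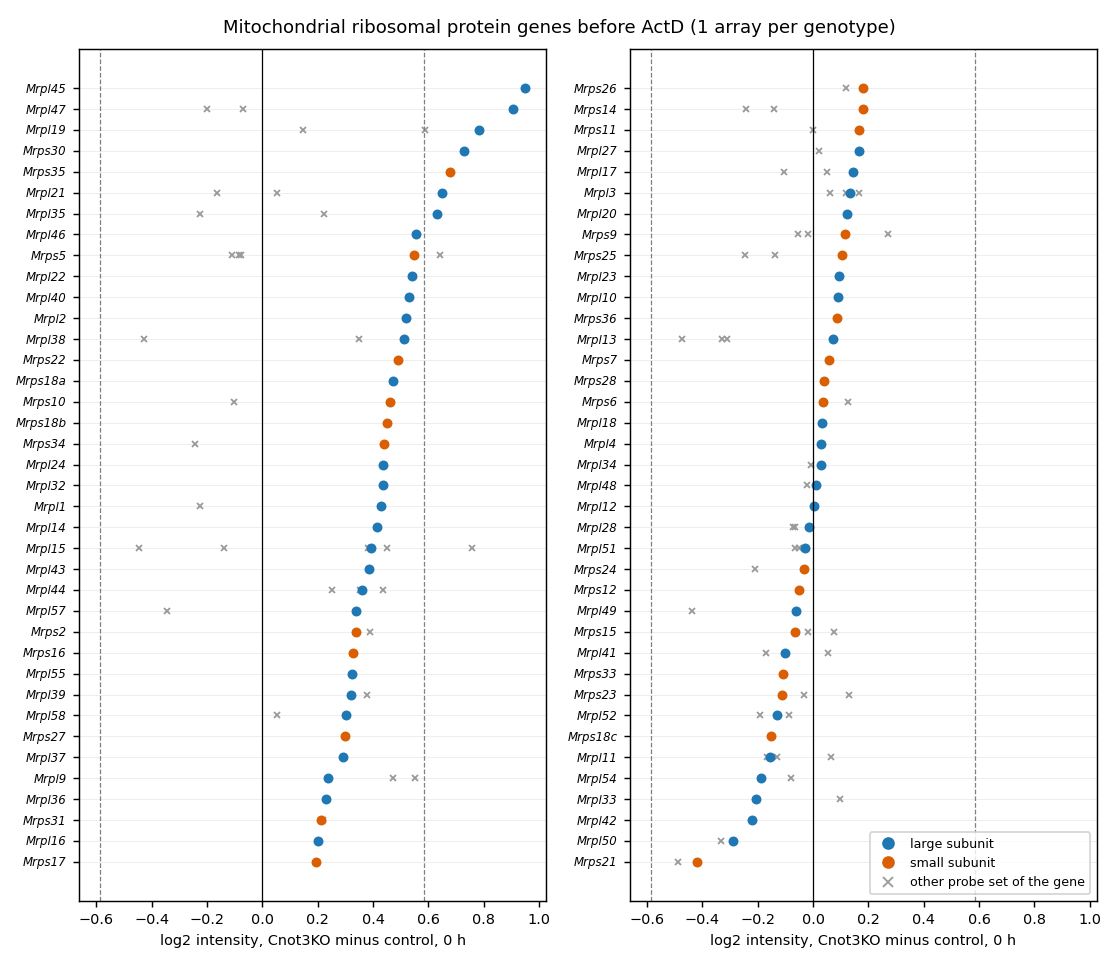
Difference between Cnot3KO and control cells before ActD for the 76 members, as log2 intensity, 1 array per genotype, in 2 panels of 38 genes ordered by value. Filled points are the probe sets used, blue for the large and orange for the small subunit, crosses are other probe sets above the 20th percentile of an array, and dashed lines mark 1.5-fold; 59 points lie to the right of 0 and 7 beyond the upper line.

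After ActD the members spread further apart. The median difference of the members was 0.19, 0.08 and 0.20 at 0, 6 and 12 h, against 0.04, -0.05 and -0.03 over all genes. It was 0.06, -0.18 and -0.25 when each array was centred on the median of all genes, which shifts all genes of an array alike. The SD of the difference over members grew from 0.29 to 0.50 and 0.74. On 26 of 76 members all 3 Cnot3KO arrays lay above all 3 control arrays, or 34.2% against 15.9% of all genes. On none did they lie below, against 12% of all genes. In limma with genotype and time as terms, none of 76 members passed an adjusted p of 0.05 in either direction, where 0.703% of all genes passed as higher and 0.285% as lower. At an unadjusted p under 0.05, 28 members were higher (36.8%, against 22.4% of all genes) and 4 were lower (5.26%, against 11%). With arrays centred on the median of all genes, these counts were 12 (15.8%, against 14.1%) and 12 (15.8%, against 33.5%). Those of members without overlap were 13 above (17.1%, against 8.2%) and 3 below (3.95%, against 24.7%). The median over the 3 times was 0.13 on the deposited scale, against -0.03 over all genes, and -0.15 after centring. The sign of that median thus depended on the scaling, while on either scale a smaller share of members than of all genes was lower. Under that centring 11 members passed as higher after adjustment (14.5%, against 11.1%) and 7 as lower (9.21%, against 20.1%). On the deposited scale but without the 0 h arrays 24 passed as higher (31.6%, against 24.3%) and 6 as lower (7.89%, against 10.9%). That fit had fewer residual degrees of freedom than the fit on all arrays, and both of its times lay after ActD. On all arrays the genotype term averages the 3 times, so it also holds differences that arose after ActD.

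The lowest adjusted p of a member, 0.0526 in limma, was that of Mrpl45, Mrpl47 and Mrps30. Mrpl45 had 1233, 1890 and 1629 in control and 2380, 2960 and 3108 in Cnot3KO cells at 0, 6 and 12 h, a mean difference of 0.84 ± 0.15 (SE). All Cnot3KO values lay above all control values and both genotypes kept a like distance. Mrpl47 had 775, 684 and 543 against 1451, 1979 and 2055, a mean difference of 1.45 ± 0.22 that grew with time. Mrps30 had 1271, 919 and 694 against 2108, 2192 and 2190, a mean difference of 1.21 ± 0.21, and its Cnot3KO values hardly moved. The lowest mean difference was that of Mrps21, -0.60 ± 0.15, with 1673, 2607 and 2978 in control and 1250, 1719 and 1718 in Cnot3KO cells (adjusted p = 0.0654 in limma).

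After ActD, intensities stand relative to all other mRNAs measured, so a change above that of the median gene marks an mRNA lost more slowly than most and a loss shared by all cannot be seen. In control cells the members moved apart over 12 h, though less than all genes did. Their changes, the fitted slope times 12 h, ran from -2.21 to 1.14 on the log2 scale. Their SD was 0.62, against 0.91 over all genes. The median was 0.22, against 0.15 over all genes. The median was up by 0.35 at 6 h, and the slope from 6 to 12 h alone, times 12 h, had a median of -0.31. With arrays centred on cytosolic ribosomal protein genes the median over 12 h was 0.01. In limma, 7 members fell (9.21%, against 14.5% of all genes) and 2 rose (2.63%, against 7.68%), and with arrays centred on the median of all genes 3 fell (3.95%, against 11.7%) and 19 rose (25%, against 31.9%). Beyond 1.5-fold, 14 members went down (18.4%, against 23.2%) and 17 up (22.4%, against 18.9%). In Cnot3KO cells the median was 0.20, and -0.076 without the 0 h arrays. The SD was 0.27, against 0.55 over all genes, and members ran from -0.54 for Mrps27 to 0.78 for Mrpl34, the counterpart of bacterial L34. None passed in limma in either direction, where 0.182% of all genes fell and 0.182% rose, and at an unadjusted p under 0.05 7 were up (9.21%, against 9.32%) and 0 down (against 8.25%). No member went down by 1.5-fold (against 10.5% of all genes) and 8 went up (10.5%, against 9.72%).

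The members that fell in control cells did not do so alike in Cnot3KO cells. Mrpl1, whose bacterial counterpart forms a mobile stalk of the ribosome, had 309, 125 and 66.7 in control and 415, 444 and 370 in Cnot3KO cells. The control value dropped at each step, with a fall over 12 h of -2.21 ± 0.23 (SE, adjusted p = 0.0086 in limma), while the Cnot3KO change was -0.17 ± 0.23. A dimmer second probe set of Mrpl1 had 198, 137 and 91.5 in control and 169, 146 and 92.4 in Cnot3KO cells, a fall in both genotypes. The genotypes of Mrpl1 thus parted on only 1 of its 2 probe sets of moderate brightness.

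Mrpl50 had 1941, 1205 and 856 in control and 1589, 1874 and 2134 in Cnot3KO cells. It was lower in Cnot3KO cells at 0 h and higher at 6 and 12 h, and so was a second probe set, with 908, 600 and 461 against 721, 788 and 806. Its control change was -1.18 ± 0.20 (adjusted p = 0.0171 in limma) and its Cnot3KO change 0.43 ± 0.20. Mrps22, a small-subunit protein found only in mitochondria, had 1264, 889 and 580 against 1774, 2167 and 1877, with a control change of -1.12 ± 0.23 (adjusted p = 0.0256 in limma). The Cnot3KO values lay above all control values and showed no steady fall.

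The other members that fell in control cells were Mrpl15, Mrps2, Mrps30 and Mrpl3, with changes of -0.94, -0.94, -0.87 and -0.88 and adjusted p between 0.0268 and 0.0455 in limma, and Cnot3KO changes of -0.01, 0.43, 0.06 and -0.23. Mrpl3 lies in bacteria near the centre where peptide bonds form, and Mrps2 and Mrpl15 also have bacterial counterparts. A dimmer second probe set of Mrpl3, with 411 in control cells at 0 h, changed by only -0.38 in control and -0.25 in Cnot3KO cells. That of Mrps2 changed by -0.53 and 0.34. Mrpl15 was covered by 8 probe sets. Of these, 5 whose names mark shared sequence had control changes from -1.11 to -0.40, and 3 others, dimmer, had 0.81, -0.12 and 0.53. Mrps31 had 462, 245 and 238 in control and 536, 507 and 806 in Cnot3KO cells, a control change of -0.96 that did not pass (adjusted p = 0.0864 in limma).

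Mrps33, a small-subunit protein found only in mitochondria, and Mrpl9, which has a bacterial counterpart, rose in control cells. Mrps33 had 1355, 2066 and 2976 in control and 1255, 1803 and 1899 in Cnot3KO cells, with a control change of 1.14 ± 0.22 (adjusted p = 0.0234 in limma). Mrpl9 had 1095, 1487 and 2319 against 1292, 1760 and 1629, with a control change of 1.08 ± 0.24 (adjusted p = 0.031 in limma). Both control series went up at each step, and so did 2 other bright probe sets of Mrpl9. In Cnot3KO cells Mrpl9 read lower at 12 than at 6 h on the probe set used and higher on the other two, one of which had 1292, 1620 and 1803. Mrps25, Mrpl36, Mrpl42 and Mrps21 were up by 0.83 to 0.88 in control cells without passing the test.

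**Figure D3:**
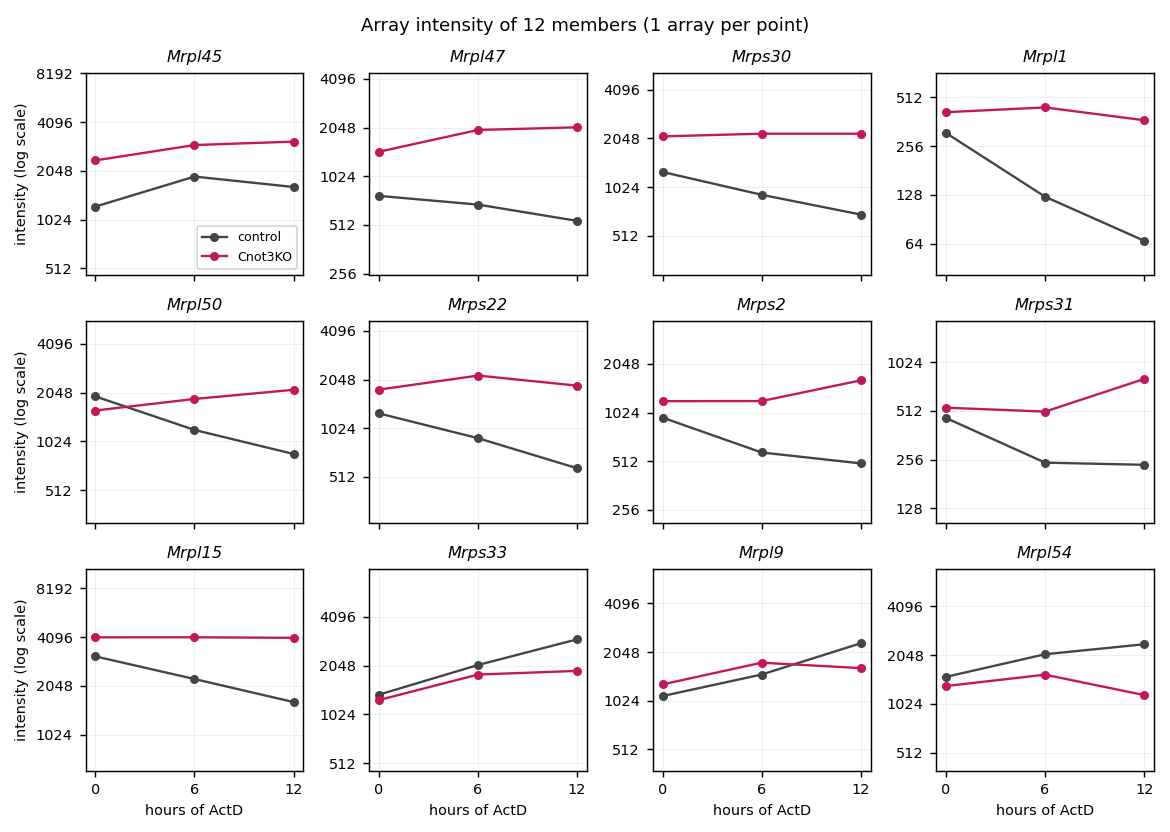
Intensity of 12 members at 0, 6 and 12 h of ActD on a log axis, 1 array per point, control in grey and Cnot3KO in magenta. Mrpl1, Mrpl50, Mrps22, Mrps30 and Mrpl15 drop at each step in control cells only, Mrpl45 keeps a similar distance between genotypes, and Mrps33 goes up in both.

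The difference between genotypes in the change over 12 h was tested as the genotype by hours term of limma. None of 76 members passed after adjustment, as was the case for all 16499 genes (0%). At an unadjusted p under 0.05, 9 members had a more positive change in Cnot3KO cells (11.8%, against 12.8% of all genes) and 0 a more negative one (against 4.95%). The lowest adjusted p of a member was 0.179. The largest differences towards Cnot3KO were 2.05 ± 0.33 for Mrpl1, 1.61 ± 0.28 for Mrpl50, 1.55 ± 0.47 for Mrps31, 1.37 ± 0.35 for Mrps2, 1.21 ± 0.32 for Mrps22 and 1.01 ± 0.31 for Mrpl47. The largest in the other direction were -0.85 ± 0.36 for Mrpl54, then Mrpl9, Mrps25, Mrpl42, Mrpl28 and Mrpl49 with -0.75 to -0.59. A second probe set of Mrpl49, nearly as bright, did not show this, with a difference in change of 0.04. Mrpl54, a large-subunit protein found only in mitochondria, had 1502, 2072 and 2388 in control and 1318, 1549 and 1159 in Cnot3KO cells. The median over members was -0.03, with values on either side of 0, against -0.04 over all genes. It was -0.35 with arrays centred on the median of all genes, which shifts all genes of an array alike.

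The control and Cnot3KO changes come from different arrays. The groups below were formed by their control change, so their control medians are partly fixed by that choice and their Cnot3KO medians are not. The gap between both medians can therefore look larger than it is. The 14 members down over 1.5-fold in control cells had a median control change of -0.88 and a median Cnot3KO change of 0.08, from -0.23 to 0.59, and 0 of 14 were down over 1.5-fold in Cnot3KO cells. Over all genes, 3827 were down over 1.5-fold in control cells and 35.5% of them also in Cnot3KO cells. Their medians were -1.25 in control and -0.36 in Cnot3KO cells. They had thus fallen further in control cells than the 14 members, and the shares are not matched for depth of fall. The 17 members up over 1.5-fold in control cells had medians of 0.80 and 0.33, and 4 of them (23.5%) were up over 1.5-fold in Cnot3KO cells too, against 22.5% of all such genes. Across members, Spearman's rho between both changes was 0.31 over 76 genes, and over all genes 0.516. Genes share their arrays and are not independent.

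**Figure D4:**
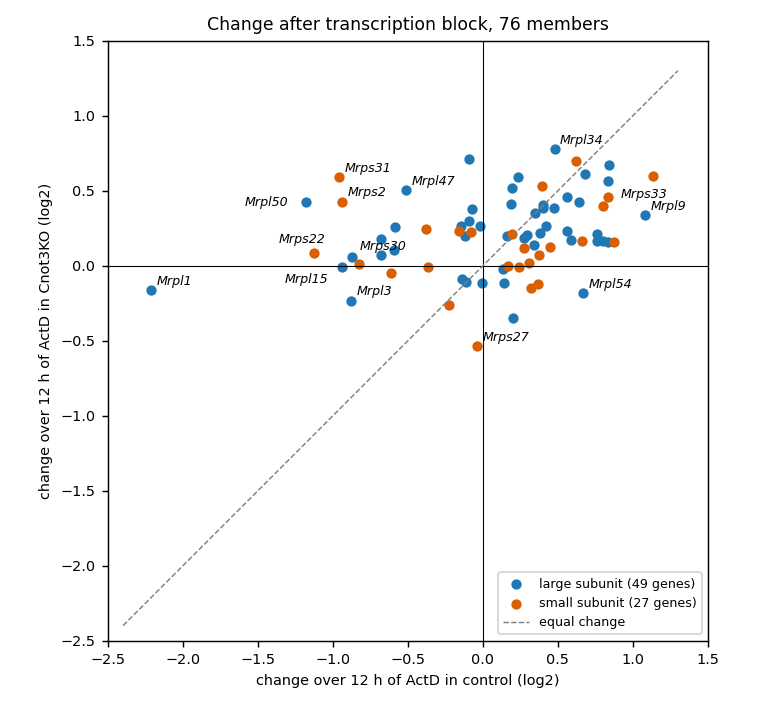
Change over 12 h of ActD on the log2 scale in control (x axis) and in Cnot3KO cells (y axis) for the 76 members, blue for the large and orange for the small subunit. The dashed line marks equal change; control values spread from -2.21 to 1.14 and Cnot3KO values from -0.54 to 0.78.

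The members of highest mean intensity were Mrps6, Mrps14, Mrps24 and Mrpl51, which says little of mRNA amounts since probe sets differ in brightness. Their differences at 0 h lay between -0.03 and 0.18. The median genotype difference over the 3 times was 0.27 for the large subunit and close to 0 for the small one, against -0.03 over all genes. At an unadjusted p under 0.05 in limma, 20 of 49 and 8 of 27 members were higher, against 22.4% of all genes. The medians were -0.01 and -0.28 with arrays centred on the median of all genes. Within the small subunit, proteins found only in mitochondria had median changes of -0.21 (control) and 0.14 (Cnot3KO), and those with bacterial counterparts of 0.24 and 0.16. With arrays centred on the median of all genes the first of these turned to 0.14. No test was made between classes.

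Of 5 listed proteins of the mitochondrial ribosome with other symbols, 4 were measured on probe sets of their own and all 4 lay above 0 at 0 h. Gadd45gip1 had 1342, 1366 and 1017 in control and 2553, 2644 and 2668 in Cnot3KO cells, 1.90-fold higher at 0 h, with a mean difference of 1.09 ± 0.16 (adjusted p = 0.0526 in limma). Dap3, Ptcd3 and Chchd1 differed by 0.32, 0.26 and 0.24 at 0 h. Gadd45gip1 thus resembled Mrpl45 and Mrps30, and the other members of this list the median member.

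Factors that build the mitochondrial ribosome or modify its RNA had a larger median difference than the ribosomal proteins, which was not tested. The median of 26 genes was 0.36 at 0 h, 24 of 26 lay above 0 (against 55.0% of all genes), and 5 were over 1.5-fold higher (against 6.87%). Over the 3 times the median was 0.75. At an unadjusted p under 0.05 limma gave 20 of 26 higher (against 22.4% of all genes) and 0 lower (against 11%), though 0 passed after adjustment. Ngrn, Rpusd4 and Mtg1 had the largest differences at 0 h, with 0.75, 0.73 and 0.70. In control cells the median change over 12 h was -0.31 and 4 of 26 fell in limma, a share near the 14.5% of all genes. In Cnot3KO cells the median was 0.29 and 0 were down by 1.5-fold (against 10.5% of all genes). With arrays centred on the median of all genes the list kept its sign at 0 h and over the 3 times, with medians of 0.24 and 0.47. The control change turned to 0.04, against 0.50 over all genes.

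Other steps of mitochondrial gene expression had like medians at 0 h. For 13 translation factors the median was 0.28, with Mtif3, an initiation factor, at 0.60, Mtif2 at 0.48 and Mtfmt, which formylates the initiator tRNA, at 0.46. For 19 mitochondrial aminoacyl-tRNA synthetases it was 0.30, and all 19 lay above 0 (against 55.0% of all genes), led by Tars2 at 0.66, Ears2 at 0.65 and Pars2 at 0.49. For 16 genes of mitochondrial DNA and RNA synthesis and turnover it was 0.27, with Tefm, an elongation factor of the mitochondrial RNA polymerase, at 0.77, Twnk at 0.68 and Pnpt1 at 0.59. In limma over the 3 times 0 of these genes passed after adjustment. At an unadjusted p under 0.05 the counts were 4, 10 and 11 higher (against 22.4% of all genes) and 0 lower (against 11%). With arrays centred on the median of all genes they were 4, 8 and 6 higher (against 14.1%) and 3, 1 and 2 lower (against 33.5%). The median of the translation factors over the 3 times turned from 0.095 to -0.18 under this shift of all genes.

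Of 9 nuclear regulators of such genes, 5 fell over 12 h in control cells, against 14.5% of all genes. They were Ppargc1a, Pprc1, Gabpa, Yy1 and Gabpb1, with adjusted p between 0.0179 and 0.0343 in limma. With arrays centred on the median of all genes 4 of 9 fell, against 11.7%. Ppargc1a, a coactivator of mitochondrial biogenesis, had 370, 65.9 and 41.5 in control and 418, 150 and 161 in Cnot3KO cells, and its related coactivator Pprc1 had 693, 142 and 95.7 against 900, 431 and 708. Yy1 had 3530, 2071 and 1519 against 3373, 2974 and 3504, and Gabpa had 865, 544 and 368 against 801, 812 and 643. At 0 h Gabpa and Yy1 differed by -0.11 and -0.07, and Nrf1 by 0.16. The median of the 9 at 0 h was 0.18, with Gabpb1 at 0.59, Ppargc1b at -0.43 and Pprc1 at 0.38.

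The products of mitochondrial translation join subunits made in the cytosol, and mRNAs of those nuclear subunits lay on the other side. The median of 76 respiratory chain and ATP synthase genes kept at 0 h was -0.15 and 20 of them (26.3%) lay above 0. Cox7a1 and Cox6b2, isoforms known from other tissues, were higher by 1.27 and 1.20, and Ndufa3 differed by -0.50. Over the 3 times 2 of 77 genes passed as higher in limma, Cox7a1 and Cox6b2, against 0.703% of all genes. At an unadjusted p under 0.05, 20 were lower (against 11%), or 45 with arrays centred on the median of all genes (against 33.5%). Cytosolic ribosomal protein genes had a median of -0.03 at 0 h over 45 genes, with Rps4l at 0.63, Rpl37 at -0.40 and Rps25 at -0.32. Neither list is independent of the arrays on which the members were measured, and no test between lists was made.

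**Figure D5:**
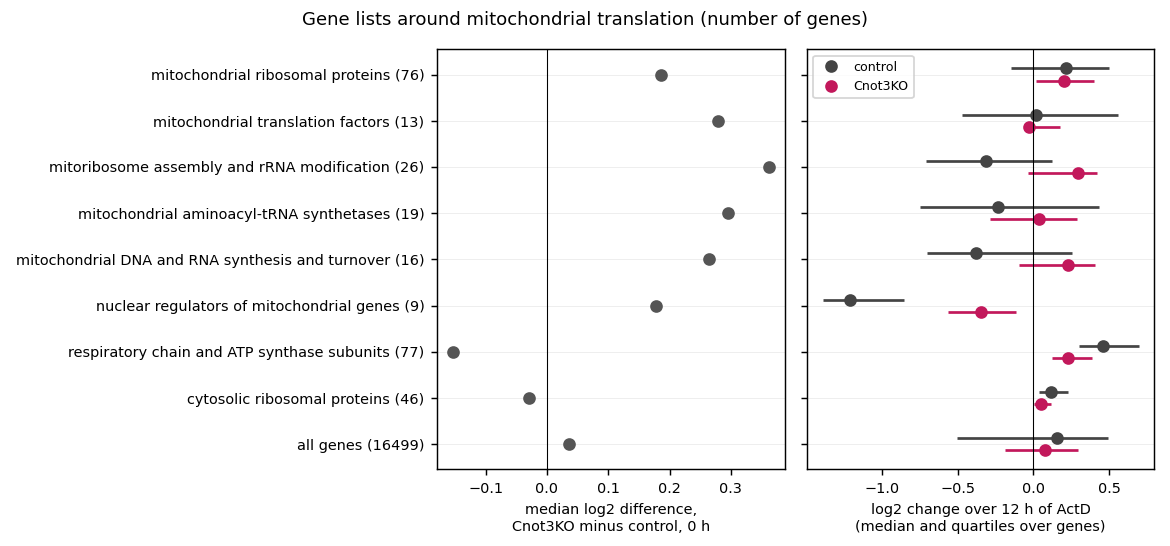
Left, median log2 difference between Cnot3KO and control cells at 0 h for 8 gene lists and for all genes. Right, median (points) and quartiles over genes (lines) of the log2 change over 12 h of ActD in control (grey) and Cnot3KO (magenta); the number of genes kept over all arrays stands beside each list. The members stand at 0.19 at 0 h, assembly factors at 0.36 and respiratory chain genes at -0.15.

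Markers of cell types differed between the arrays. In bulk samples, fewer cells of a type and less RNA per cell cannot be told apart. At 0 h the median of 9 hepatocyte markers was -0.06, with Alb at 35595 in control and 34185 in Cnot3KO cells. Single hepatocyte markers differed more, with -1.50 for Cps1, -0.55 for Apoh and 0.33 for Hnf4a. The median was -0.32 for 8 macrophage markers, -0.52 for 6 endothelial, -0.18 for 6 stellate and fibroblast, -0.46 for 5 erythroid and 0.89 for 6 cholangiocyte markers. Of the endothelial and of the erythroid markers 0 lay above 0, and of the cholangiocyte markers 5 of 6. The summed intensity of the cholangiocyte list ran from 19421 to 22717 on control and 34111 to 41341 on Cnot3KO arrays, with no overlap. That of the hepatocyte list ran from 140061 to 156985 on control and 141158 to 148081 on Cnot3KO arrays. Alb, Ttr, Fgb and Apoa1 carried most of the hepatocyte sum, with 32863, 27478 and 27188 for the last 3 in control cells at 0 h. Whether such bright probe sets were saturated was not tested, so this sum does not measure hepatocyte content. The sum of the macrophage list ran from 14580 to 17143 on control and 12996 to 14952 on Cnot3KO arrays. Lyz2 and Csf1r carried most of it, with 6893 and 4768 in control cells at 0 h. Of dimmer macrophage markers, Mrc1 and Vsig4 read 794 and 237 in control against 385 and 114 in Cnot3KO cells at 0 h. Of the 8 macrophage markers 2 lay above 0. The sum of the endothelial list ran from 435 to 1187 on control and 259 to 739 on Cnot3KO arrays. For stellate and fibroblast markers it ran from 4906 to 6025 on control and 2995 to 4908 on Cnot3KO arrays, and for erythroid markers from 417 to 488 on control and 344 to 362 on Cnot3KO arrays. No defining marker of these lists was at 0 on these arrays, where background also gives a positive value. The part of other cell types in the differences of the members was not tested.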

How the data were processed

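Total RNA of fetal hepatocytes was hybridised to Affymetrix Mouse Genome arrays, whose probe sets favour the 3′ end. The labels and methods state that the authors summarised each probe set with RMA, which corrects the background and equalises the distributions of the arrays; which software ran it is not given in the sources used here. Values for 45037 probe sets were deposited as linear intensities, and log2 was taken here. Groups followed the labels. Probe sets that name 1 gene were used, the brightest per gene, and a gene was kept if 1 or more arrays had it above their 20th percentile. Median probe set intensities lay between 69.7 and 72.4 on the 6 arrays. Changes over 12 h and genotype differences were fitted with limma 3.58.1 in R 4.3.3 (lmFit and eBayes), with genotype plus time and with genotype by hours, each with 2 residual degrees of freedom, and Benjamini-Hochberg adjustment over 16499 genes. Both models were run on simulated data with changes larger than those of nearly all members, which does not show how smaller changes fare. Members, lists and tests were chosen with earlier results of these data known. Genes were named by rule: members over 1.5-fold at 0 h, the 8 highest and 8 lowest at 0 h, the 6 most falling, rising, slowed and quickened after ActD (both limits of rank only over members brighter than the median of an array at 0 h), members called by limma, the 4 of highest mean, members whose probe sets disagree, and up to 3 genes per list. Further genes were named after their values were seen, as neighbours of members, as markers, as regulators, or as Mrps27 and Mrpl34 at the ends of a range. Promoters and gene starts came from RefSeq, GRCm38.p6. Alternatives comprised other filters, probe set rules, centrings, terms for time, and leaving out each time, which leaves fewer residual degrees of freedom.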

Additional observations from a re-analysis of the deposited data

How the results depend on the processing

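The genotype term compared arrays of the same time. No paired analysis was possible beyond that, since the labels carry no replicate numbers. The filter, or its absence, moved no count or median of the members. Centring on cytosolic ribosomal protein genes took the median change from 0.22 to 0.01 in control and from 0.20 to 0.09 in Cnot3KO cells and the median difference in change from -0.03 to 0.06, while the medians at 0 h and over the 3 times were 0.19 and 0.15. With the mean of all probe sets, 3 members were over 1.5-fold higher at 0 h, 9 were higher and 1 lower over the 3 times and 8 rose in control cells in limma. Without probe sets of shared sequence, which left 62 members, 4 were higher over the 3 times. Taking hours as a linear term in place of 3 separate times gave 12 higher. The shares of all genes that pass limma under these settings were not counted, so these counts are description only. The median of all genes fell from 7.59 to 7.24 on the log2 scale over 12 h in control cells and was 7.71 and 7.69 in Cnot3KO cells. Centring each array on it left 4 members over 1.5-fold higher at 0 h. This turned the median genotype difference over the 3 times to -0.15, with 11 members higher and 7 lower in limma. The median change in control cells moved to 0.56, with 3 that fell and 19 that rose, against a median of 0.50 over all genes. The median difference in change moved to -0.35. Such centring shifts all genes of an array alike, so the members kept their distance from the median of all genes. The median difference at 0 h was then 0.06, with all genes at -0.09. Leaving out each time in turn, called members ranged from 0 to 24 higher and from 0 to 6 lower. Both upper values came without the 0 h arrays, where 24.3% of all genes were higher and 10.9% lower. The median change ranged from -0.31 to 0.71 in control and from -0.076 to 0.48 in Cnot3KO cells, and the difference in change from -0.18 to 0.25, the negative changes and the positive difference again without the 0 h arrays. Of single members, Mrpl21 over the 3 times turned to -0.17 with the mean of probe sets and to -0.30 without shared sequence, and the control change of Mrpl15 turned to 0.81 without shared sequence. The cause was not tested. Depth has no meaning on arrays, and every member was brighter than the array median on all arrays except Mrpl1 in control cells at 12 h.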
